A study of Mus musculus with 2 samples.

Results

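Activated tumour fibroblasts were followed here through 8 genes: Cthrc1, Lrrc15, C1qtnf3, Fmod, Mfap4, Ccn3, Lrrc17 and Pcsk5. They were picked from the 19465 genes measured because their KO over WT ratios were among the lowest of these sections, so their lower level in the KO section is the basis of the choice and not a result. Expression was mapped with Visium CytAssist, in which paired gene probes are ligated on fixed tissue and captured on a grid of barcoded spots, and each spot can hold several cells. Values are unique molecular identifiers (UMIs), each standing for 1 captured probe molecule, and CPM, the UMIs of a gene scaled to the same total of all UMIs in each section or in the named spots.

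The KO section came from a tumour in a Foxp3-Cre × CK2b-fl/fl mouse, in which Cre driven by Foxp3 deletes Csnk2b, the regulatory subunit of protein kinase CK2, in regulatory T cells. The WT section came from a tumour in a mouse titled Csnk2bfl/fl, the floxed gene with no Cre named, whose genotype field reads wild-type. Both tumours grew from cells of the mouse melanoma line B16.F10, which makes pigment, in untreated mice aged 8 to 16 weeks, and tumours of similar size were taken on day 15, fixed in formalin, embedded in paraffin and cut at 10 µm. Fibroblasts and melanoma cells keep Csnk2b in both mice, so its level over the section (392 CPM in KO and 392 CPM in WT) does not check the deletion. There is 1 section per genotype, so the differences have no replicate check and no p-value is given. The intervals are exact 95% intervals and cover counting error only.

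Fibroblasts in healthy connective tissue are quiet cells that maintain the matrix. In wounds, fibrosis and tumours a share of them becomes activated, often under TGF-beta, and lays down large amounts of fibrillar collagen and of the proteins that modify it. Cthrc1 and Lrrc15 are widely used markers of this state in mouse and human. The other members encode matrix-bound, secreted or secretory-pathway proteins.

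RefSeq promoter windows for GRCm38.p6, from 250 bases before to 50 bases after an annotated start, were found for 5 of the 8 members (Fmod, Lrrc17, C1qtnf3, Lrrc15 and Pcsk5). The windows of Lrrc15 and C1qtnf3 are shown because Lrrc15 is a defining marker of the activated state and C1qtnf3 had the lowest ratio of the 8. Capitals mark matches to 4 motifs searched on both strands: a TATA box (TATAAA), AP-1 (TGANTCA), TEAD (GGAATG) and RUNX (TGTGGT). Positions count from 1 at the start site and from -1 before it. Lrrc15 lies on the minus strand (chr16:30283205-30283504) and C1qtnf3 on the plus strand (chr15:10952082-10952381).
Lrrc15: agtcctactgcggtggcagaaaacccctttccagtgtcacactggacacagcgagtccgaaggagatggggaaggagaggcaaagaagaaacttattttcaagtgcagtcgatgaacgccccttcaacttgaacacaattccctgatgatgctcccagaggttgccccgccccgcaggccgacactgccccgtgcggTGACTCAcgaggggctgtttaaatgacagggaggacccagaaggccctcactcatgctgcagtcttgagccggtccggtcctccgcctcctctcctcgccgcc
C1qtnf3: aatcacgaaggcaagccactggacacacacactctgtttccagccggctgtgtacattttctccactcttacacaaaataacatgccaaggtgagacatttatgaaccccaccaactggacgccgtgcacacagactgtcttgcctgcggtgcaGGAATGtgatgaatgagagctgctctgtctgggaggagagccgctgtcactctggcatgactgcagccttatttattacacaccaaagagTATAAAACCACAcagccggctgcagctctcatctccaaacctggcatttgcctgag
The Lrrc15 window held TGACTCA, an AP-1 match, from position -53. The C1qtnf3 window held the TEAD letters from -96, TATAAA from -6 and ACCACA, the RUNX letters read on the other strand, from 1. The Lrrc17 window held TATAAA from -166, and those of Fmod and Pcsk5 held none of the 4 motifs. Of 32851 windows of the same length, 13.6% held the TATA letters, 7.81% AP-1, 14.7% TEAD and 16.8% RUNX, and no matches overlapped in the member windows. A match describes these letters and is not a binding site, and no motif was shared by more than 2 member windows.

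The KO section had 2746 spots, 94422680 UMIs and a median of 36769 UMIs per spot, and the WT section had 3066 spots, 88735936 UMIs and a median of 26818.5. The 4 Y-linked genes summed to 1477 UMIs in KO and 0 in WT, so sex and genotype cannot be told apart. Spots rich in collagen were defined by the summed CPM of Col1a2 and Col3a1, with the WT 75th percentile (19507 CPM) as the limit in both sections. They numbered 126 of 2746 spots in KO (4.59%) and 767 of 3066 in WT (25.02%). Of them 107 in KO (84.9%) and 414 in WT (54.0%) lay within 2 grid steps of the tissue border or the frame. Their median depth was 6730.5 UMIs in KO and 12446 in WT. A lower level in a section can come from fewer fibroblasts or from less RNA in each, and spots cannot tell these apart.

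Over whole sections, Cthrc1 (chr15:39076932-39087121), a secreted glycoprotein that binds WNT receptor complexes, gave 1177 UMIs (12.5 CPM) in KO and 16334 UMIs (184 CPM) in WT, 14.8-fold lower in KO (13.9 to 15.7). Lrrc15 (chr16:30269302-30283254), a membrane protein with leucine-rich repeats that is induced by TGF-beta, gave 287 UMIs (3.04 CPM) in KO and 3478 UMIs (39.2 CPM) in WT, 12.9-fold lower (11.4 to 14.6). Positions are those of the whole gene in GRCm38. These are the markers most closely tied to the activated state, and the KO level of each was low but not 0.

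Among the matrix-associated members, Fmod (chr1:134037254-134048280), a small leucine-rich proteoglycan that binds collagen fibrils, gave 73 UMIs (0.773 CPM) in KO and 825 UMIs (9.30 CPM) in WT. Mfap4 (chr11:61485431-61488708), a glycoprotein of elastic microfibrils, gave 244 UMIs (2.58 CPM) in KO and 2873 UMIs (32.4 CPM) in WT. Ccn3 (chr15:54745910-54753762), a matricellular protein of the CCN family, gave 375 UMIs (3.97 CPM) in KO and 4207 UMIs (47.4 CPM) in WT. The fold differences of these 3 were close, at 12.03, 12.5 and 11.9 lower in KO for Fmod, Mfap4 and Ccn3, with intervals that overlap (9.46 to 15.5, 10.99 to 14.3 and 10.7 to 13.3). With probe background taken off, the log2 ratios were -4.80 for Fmod, -3.91 for Mfap4 and -3.74 for Ccn3, with no intervals. The same amount, 42 UMIs in KO (the background median given below), was taken off each. Beside the 73 KO UMIs of Fmod that is large, so its value depends on the amount and does not show that the 3 differ.

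Of the secreted and secretory-pathway members, C1qtnf3 (chr15:10952119-10980162), a C1q and TNF related protein described in cartilage and fat, gave 92 UMIs (0.974 CPM) in KO and 2663 UMIs (30.01 CPM) in WT, 30.8-fold lower (25.02 to 38.3). Lrrc17 (chr5:21543527-21575911), a secreted leucine-rich repeat protein that restrains osteoclast formation in mouse, gave 267 UMIs (2.83 CPM) in KO and 4249 UMIs (47.9 CPM) in WT, 16.9-fold lower (14.96 to 19.2). Pcsk5 (chr19:17432314-17837712), a proprotein convertase that cleaves precursor proteins in the secretory pathway, gave 98 UMIs (1.04 CPM) in KO and 1594 UMIs (17.96 CPM) in WT, 17.3-fold lower (14.1 to 21.4). C1qtnf3 had the largest fold of the 8, with an interval above those of the other 7.

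All 8 members were at least 10-fold lower in KO, against 0.174% of 10374 genes (those reaching 500 UMIs in 1 section or both), a difference fixed by how they were chosen. At least 2-fold lower were 8 of 8 members, against 5.06% of all genes, and at least 2-fold higher were 0 of 8, against 0.839%. Their median log2 ratio was -3.79, and that of all genes was 0.02. Ccn3, at 11.9-fold, is the member nearest the boundary, and Cdkn2b, Ccl24 and Arg1 lay just outside it at 11.7-fold, 11.3-fold and 11.2-fold lower. The immunoglobulin genes Igkc and Igha, at 34.5-fold and 14.3-fold lower, have ratios in the members' range and do not belong to the set. Levels are not compared between genes, since probes differ.

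**Figure D1:**
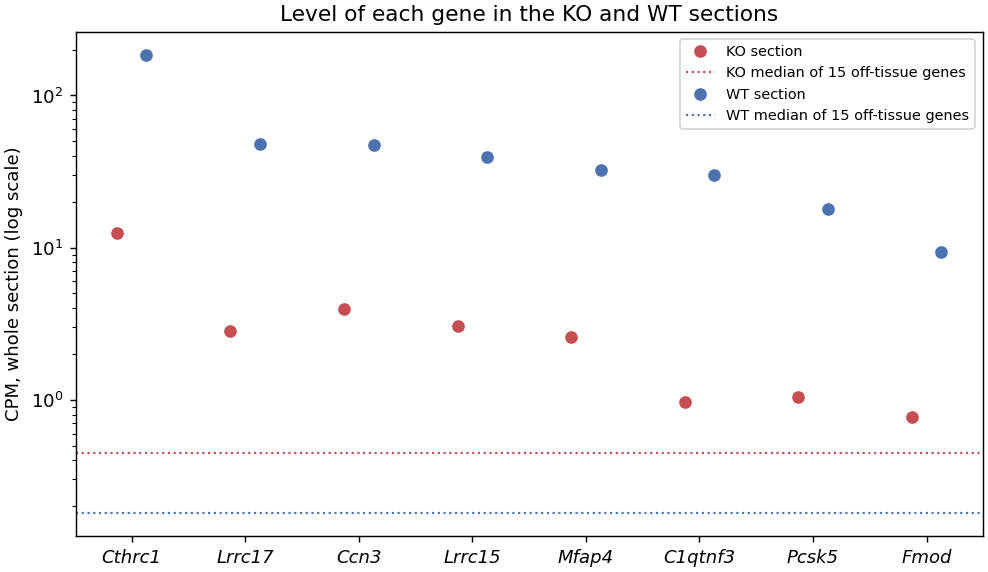
Level of each member (CPM, log axis) in the whole KO section (red points, left) and the whole WT section (blue points, right), with dotted lines at the median of the 15 background genes in each section. All 8 KO points lie at least 10-fold below their WT points, and Fmod in KO (0.773 CPM) lies nearest the background.

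Residual KO signal was set against 15 genes that belong to distant organs such as pituitary, pancreas and testis. These gave a median of 42 UMIs per gene in KO and 16 in WT. Above 2 times that median stood 7 of 8 members in KO (limit 84 UMIs) and 8 of 8 in WT (limit 32 UMIs). At 3 times the median (126 UMIs) 5 of 8 did so in KO, without Fmod, C1qtnf3 and Pcsk5, and at 1 time the median 8 of 8. Fmod, at 73 UMIs, was the member below the first KO limit, and C1qtnf3 (92 UMIs) and Pcsk5 (98 UMIs) lay just above it. No share of all genes past these limits was computed, so it is not known whether the member counts are unusual. The WT count tells little, since even Fmod, the lowest member there, gave 825 UMIs. Single background genes can exceed these limits. Among them Gh, a pituitary hormone, gave 147 UMIs in KO and 186 in WT, more than the 73 to 98 KO UMIs of Fmod, C1qtnf3 and Pcsk5.

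Where the residual UMIs lay separates the members further. In the KO section the CPM in collagen-rich spots over that in the other spots was 49.6 for Ccn3, 48.8 for Lrrc17, 25.1 for Cthrc1 and 15.7 for Pcsk5. It was 6.88 for Lrrc15, from 18 UMIs in collagen-rich spots, and 6.26 for Mfap4, from 14. For Fmod it was 1.43 and for C1qtnf3 1.13 (0.0283 to 6.45), each from 1 UMI in collagen-rich spots, and for the background genes together it was 0.715 (0.287 to 1.48) from 7 UMIs. So 6 members were at least 2-fold higher in collagen-rich KO spots, Lrrc15 and Mfap4 on few UMIs. Only 6.27% of the KO UMIs of Lrrc15 and 5.74% of those of Mfap4 lay there. In KO spots with 5000 to 20000 CPM of collagen Lrrc15 was 23.8 CPM and Mfap4 26.7 CPM. At 20000 CPM and above they were 18.8 CPM and 10.6 CPM. The few UMIs of Fmod and C1qtnf3 were spread in a way that could not be set apart from the background genes at this depth. Over KO genes with enough UMIs, 11.6% were at least 2-fold higher in collagen-rich spots and 3.25% at least 10-fold.

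In the WT section all 8 members were at least 10-fold higher in collagen-rich spots than in the others, against 3.76% of 10177 genes, and at least 2-fold higher were 8 of 8 against 13.6%. This layout was not itself the rule of choice but is tied to it, so the counts are no independent support. Collagen-rich spots made up 4.59% of the KO and 25.02% of the WT spots, and the members were chosen for a low KO over WT ratio. The ratio was 77.1 for Pcsk5, 48.96 for Ccn3, 39.9 for Cthrc1, 39.4 for Lrrc17, 24.7 for Mfap4, 17.1 for Lrrc15, 16.6 for Fmod and 13.5 for C1qtnf3. Col1a1, the main chain of type I collagen, had 29.2 and Dcn, a proteoglycan of fibroblasts, 35.6. The members thus lie on both sides of general fibroblast genes, with Pcsk5 and Ccn3 the most restricted and C1qtnf3 the least.

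The share of a member's UMIs that fell in collagen-rich spots ranged in KO from 1.09% for C1qtnf3 to 32.5% for Ccn3, and in WT from 64.6% for C1qtnf3 to 91.3% for Pcsk5. The richest single spot held 13 UMIs of Cthrc1 in KO and 140 in WT, and 3 UMIs of C1qtnf3 in KO and 39 in WT. On the map the WT signal formed a broad band. By quadrant of the array, WT Cthrc1 was 602 CPM where rows and columns were low and 4.54 CPM where both were high, and 7 members were highest in that low quadrant. C1qtnf3 was alike in the low quadrant (75.2 CPM) and in the one of high rows and low columns (77.4 CPM). KO Cthrc1 reached 50.07 CPM in the quadrant of high rows and low columns and 2.63 CPM at its lowest, while Fmod ranged only from 0.621 to 0.931 CPM over the KO quadrants.

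**Figure D2:**
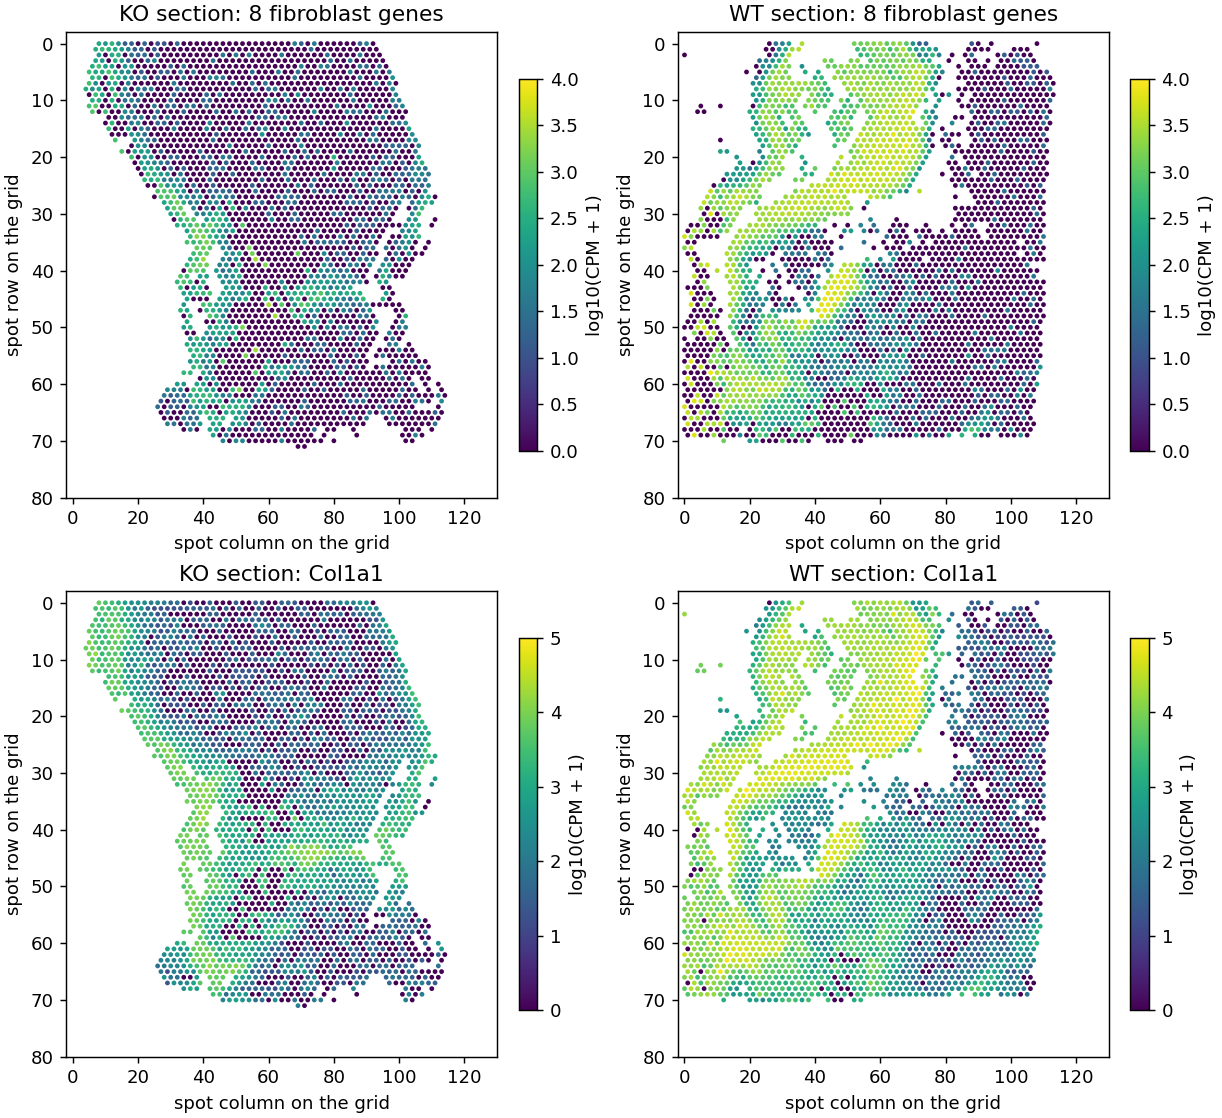
Every spot by its column and row on the grid, in the KO section (left) and the WT section (right), coloured by log10(CPM + 1) of the 8 summed members (top) and of Col1a1 (bottom). In WT high values fill a band in the upper left and patches in the lower left, where most of the 767 collagen-rich spots lie, and in KO the signal is weaker and runs mainly along the left border.

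Distance from the border gave a second view of location. WT Cthrc1 was 190 CPM in spots 1 step from the border or frame, 293 CPM at 2 steps, 260 CPM at 3 to 4 steps, 114 CPM at 5 to 8 steps and 34.8 CPM further in. KO Cthrc1 was 27.1, 25.6, 19.97, 5.91 and 3.35 CPM over the same steps. Both sections had more near the border than in the depth of the tumour, and at every distance the KO value was the lower. WT C1qtnf3 peaked at 2 steps (55.02 CPM), while KO C1qtnf3 stayed between 0.729 and 1.5 CPM throughout.

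Moran's I is a score of how strongly neighbouring spots resemble each other, near 0 for a random layout and near 1 for a smooth one, and the authors' software computed it for each gene. The median over the 8 members was 0.143 in KO and 0.589 in WT, against 0.0496 in KO and 0.0614 in WT over all genes. Cthrc1 had 0.440 in KO and 0.781 in WT, where it ranked 11 among all genes. Ccn3 had 0.246 in KO and 0.751 in WT (rank 26), and Lrrc17 had 0.226 in KO and 0.654 in WT. Among the lowest in KO were C1qtnf3, with 0.0158 against 0.557 in WT, and Fmod, with -0.000393 against 0.466 in WT. In KO 1 member was among the 500 highest of 19339 scores and in WT 7 were among the 500 highest of 19296. The low KO counts follow from how the members were chosen, so this difference is no independent support. Moran's I falls as counts become sparse, and a score near 0 at these KO counts does not show a random layout. Col1a1, with many more counts, had 0.734 in KO and 0.903 in WT.

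Whether the members share spots was asked in WT after every spot was thinned at random to 5000 UMIs, which left 2671 spots and left out 395. At this depth 3 or more of the 8 members were seen in 576 of 646 collagen-rich spots (89.2%) and in 68 of 2025 other spots (3.36%). No member was seen in 0.155% of collagen-rich spots and in 79.4% of the others. For each ordered pair, the level of a member in spots with the other was divided by its level in spots without it. All 56 ratios were above 1, with a median of 6.95 and a range of 1.34 to 123. Such ratios were not computed for pairs of other genes, here or within collagen-rich spots. It is therefore not known whether the counts of pairs are unusual.

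Within collagen-rich spots alone, most of this sharing was gone. The median ratio there was 1.31 and 39 of 56 ratios were above 1. C1qtnf3, Fmod and Mfap4 still went together: Fmod was 6.28 times as high in collagen-rich spots with C1qtnf3 as in those without, C1qtnf3 6.04 times as high with Fmod, C1qtnf3 5.32 times with Mfap4 and Fmod 5.81 times with Mfap4. Mfap4 itself was 3.21 times as high with C1qtnf3 and 3.72 times with Fmod. Ccn3 went the other way, at 0.492 times in spots with C1qtnf3, 0.406 with Fmod and 0.366 with Mfap4. The reverse ratios were weaker, at 0.870 for C1qtnf3, 0.839 for Fmod and 0.728 for Mfap4 in spots with Ccn3. Pcsk5 was also low, at 0.381 times with Fmod and 0.711 with C1qtnf3, but was 1.65 times with Mfap4. In spots with Pcsk5, Fmod was at 0.389, C1qtnf3 at 0.707 and Mfap4 at 1.28. The highest ratio, 8.14 for Pcsk5 given Cthrc1, rests on the few spots without Cthrc1, which was seen in 98.3% of these spots. This grouping was noticed in the values and carries no test, and spots are not replicates.

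Over 102 tiles of 6 array rows by 12 columns in WT, Pearson correlations of log2(CPM + 1) between members ran from 0.27 (Fmod with Ccn3) to 0.94 (Cthrc1 with Lrrc17), with a median of 0.73 over 28 pairs. C1qtnf3 correlated at 0.88 with Mfap4 and 0.70 with Fmod. Tiles share 1 library and the broad collagen gradient, so these values describe layout only. Across tiles the members also followed the pan fibroblast list, from 0.42 for Fmod to 0.97 for Cthrc1, and ran against the melanocytic list, from -0.12 for Fmod to -0.77 for Ccn3. With the fascia-type list, genes of fibroblasts in resting connective tissue, Ccn3 had 0.90, and with the activated fibroblast and matrix list 0.87. Lrrc15 had 0.79 with the fascia-type and 0.88 with the activated list. The macrophage list also followed the members, from 0.42 for Fmod to 0.90 for Lrrc17, so a collagen-rich location is shared with other cells, and spots were given no cell type.

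**Figure D3:**
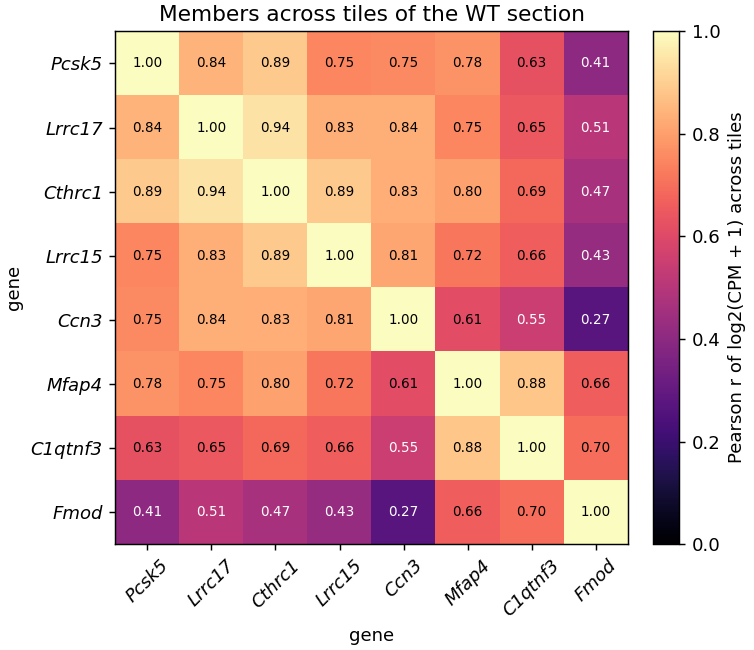
Pearson correlation of log2(CPM + 1) between each pair of members over 102 tiles of the WT section, coloured by value. The highest is Cthrc1 with Lrrc17 (0.94), C1qtnf3 and Mfap4 reach 0.88, and the lowest is Fmod with Ccn3 (0.27).

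By the same measure the genes most like the summed members in WT were Col3a1 (0.983), Col1a2 (0.982), Col5a1 (0.981) and Col1a1 (0.979), all fibrillar collagen chains, followed by Fstl1, Thbs2, Gpx3, Col5a2, Lox and Ccdc80 (0.967). Cthrc1 gives the most UMIs to that sum. For the single members the neighbours differed. Lrrc15 was closest to Col12a1 (0.918), a collagen that binds fibrils, Postn (0.916), the matricellular protein periostin, and Col5a2 (0.904). C1qtnf3 was closest to Mfap4 (0.880), Cilp (0.849) and Pdgfrl (0.756), and Fmod to Pdgfrl (0.760), Col8a2 (0.745) and Cilp (0.742). Pcsk5 was closest to Arsi (0.913), Sfrp2 (0.899), a secreted WNT modulator, and Bmp1 (0.894), the procollagen C-proteinase. For Ccn3 they were Crip1 (0.897), Fbn1 (0.895), the main fibrillin, and Adamtsl1 (0.889), and for Lrrc17 Loxl1 (0.956), a collagen and elastin crosslinker, Lsp1 (0.956) and Col3a1 (0.948).

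The 8 genes were then set against Col1a1 within collagen-rich spots, to ask whether the KO section has less of them for the collagen signal it has. Col1a1 itself gave 8351 UMIs (9180 CPM) in these KO spots and 340901 UMIs (32131 CPM) in the WT ones. Relative to it, 7 of 8 members were lower in KO, against 2.7% of 9662 genes, and 5 of 8 were at least 2-fold lower, against 1.02%. The median log2 ratio was -1.54 for the members and 1.78 for all genes, since Col1a1 itself was low. Among fibroblast lists it was 0.17 for the activated fibroblast and matrix list, 1.15 for the pan fibroblast list and 2.09 for the fascia-type list. These are the same 2 sections that chose the members, so the counts are no independent support.

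At this collagen limit Ccn3, Lrrc17 and Cthrc1 lay nearest Col1a1. Ccn3 had 14.6 UMIs per 1000 Col1a1 UMIs in KO and 10.7 in WT, a ratio of 1.36 (1.13 to 1.63), from 122 UMIs in KO and 3657 in WT. Lrrc17 had 10.3 in KO and 10.5 in WT, a ratio of 0.981 (0.782 to 1.21), from 86 UMIs in KO and 3580 in WT. Cthrc1 had 27.7 in KO and 40.5 in WT, a ratio of 0.684 (0.598 to 0.779), from 231 UMIs in KO and 13791 in WT. Of the 3, Ccn3 was higher and Cthrc1 lower relative to Col1a1 beyond counting error, and the Lrrc17 interval included 1. This grouping depends on how the spots are chosen. With the 75th percentile of each section as the limit, the log2 ratios were -0.90 for Lrrc17, -0.72 for Ccn3 and -0.58 for Cthrc1, against -0.30 for Lrrc15 and -0.70 for Mfap4. With spots chosen on Sparc and Bgn, Lrrc17 was at -1.29 and Lrrc15 at 0.49.

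Pcsk5, Lrrc15 and Mfap4 were lower. Pcsk5 had 1.56 UMIs per 1000 Col1a1 UMIs in KO and 4.27 in WT, a ratio of 0.365 (0.194 to 0.626), from 13 UMIs in KO and 1455 in WT. Lrrc15 had 2.16 in KO and 7.13 in WT, a ratio of 0.302 (0.179 to 0.479), from 18 UMIs in KO and 2431 in WT. Mfap4 had 1.68 in KO and 6.49 in WT, a ratio of 0.258 (0.141 to 0.434), from 14 UMIs in KO and 2213 in WT. All 3 intervals lay below 1, on fewer than 20 KO UMIs each.

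C1qtnf3 and Fmod were all but missing from collagen-rich KO spots. C1qtnf3 had 1 UMI there and 1721 in the WT spots, a ratio to Col1a1 of 0.0237 (0.0006 to 0.132), where the WT ratio would have given 42.2 UMIs. Fmod had 1 UMI in KO and 572 in WT, a ratio of 0.0714 (0.0018 to 0.399), where the WT ratio would have given 14.01. Both intervals excluded 1, and the 15 background genes had 0 to 2 UMIs each in the same KO spots.

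**Figure D4:**
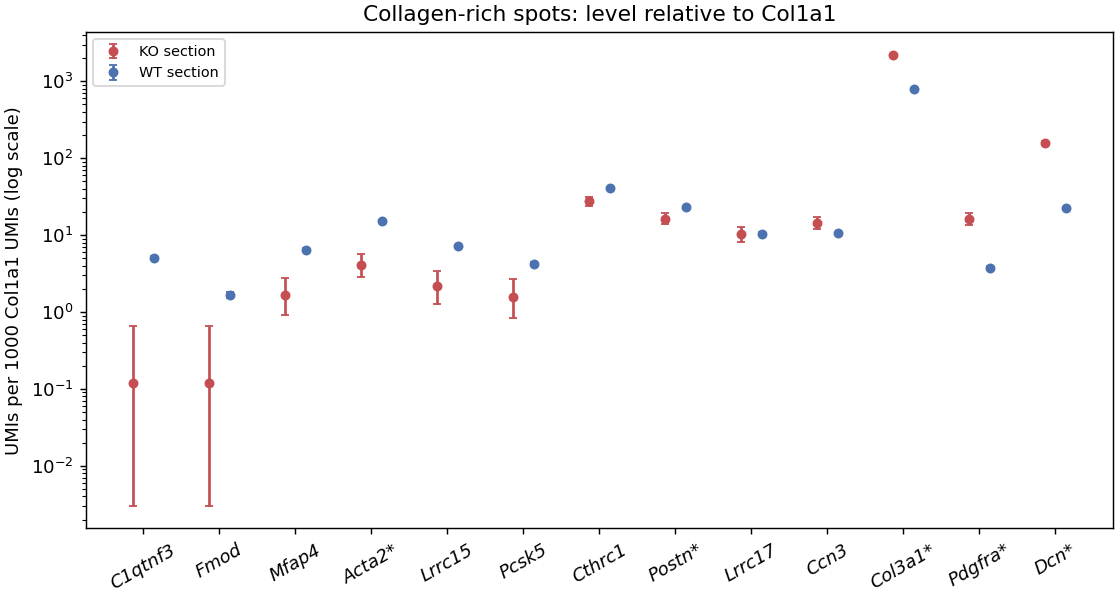
UMIs per 1000 Col1a1 UMIs (log axis) in collagen-rich spots of the KO section (red, left) and the WT section (blue, right), with exact 95% counting intervals, ordered by the KO over WT ratio, with * on genes outside the set. C1qtnf3 (0.12 in KO and 5.05 in WT) lies furthest apart, and Lrrc17 (10.3 in KO and 10.5 in WT) nearly coincides.

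Other fibroblast genes differed in whether they followed Col1a1. Relative to it Col1a2 was at 1.06 times the WT value in KO, Fbln2, a fibulin of the matrix, at 0.898 and Bgn, a small leucine-rich proteoglycan, at 0.876. Within collagen-rich spots Dcn was 1449 CPM in KO and 727 CPM in WT and Col3a1 20033 CPM in KO and 25898 CPM in WT, so relative to Col1a1 they were 6.98 and 2.71 times as high in KO. Col1a2 and Col3a1 also defined these spots and Col1a1 did not, so their values relative to Col1a1 depend on that choice. Over whole sections Col3a1 was at 0.159 and Col1a1 at 0.0966 times the WT level. Picked after their values were seen, Pdgfra, a receptor on most fibroblasts, was 148 CPM in KO and 121 CPM in WT, and Acta2, smooth muscle actin, was 37.4 CPM in KO and 488 CPM in WT. With total UMIs in place of Col1a1, all 8 members were at least 2-fold lower in the KO spots, against 8.17% of genes, and 4 were at least 10-fold lower, against 0.611%. The CPM ratio then ran from 0.389 for Ccn3, 0.280 for Lrrc17 and 0.195 for Cthrc1 to 0.0204 for Fmod and 0.00678 for C1qtnf3. The choice of denominator therefore moves Ccn3 from above 1 to below it. The order of the members is the same by construction.

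The collagen-rich spots of the 2 sections also differed in other ways. The macrophage list summed to 10727 CPM in KO and 3690 CPM in WT in them, with 6 of 8 genes at least 2-fold higher and none at 0, and C1qa, a complement subunit of macrophages, was 4758 CPM in KO and 1327 CPM in WT. The T cell list summed to 196 CPM in KO and 86.2 CPM in WT. Of the fascia-type list 5 of 14 genes were at least 2-fold higher and 3 lower (Gsn 1010 CPM in KO and 266 CPM in WT), and the list summed to 6598 CPM in KO and 5092 CPM in WT. The share of all genes at least 2-fold higher in these spots was not computed, so the counts of higher genes have no background. The median log2 ratio there was 1.55 for the macrophage list, 0.28 for the fascia-type list and -0.03 for all genes. Skeletal muscle genes summed to 134 CPM in KO and 56.1 CPM in WT, and endothelial genes to 215 CPM in KO and 583 CPM in WT. Melanocytic genes summed to 6816 CPM in KO and 7290 CPM in WT. The part of these differences, and of the rim location, in the members' ratios was not tested.

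Shares of thinned spots also put Cthrc1, Ccn3 and Lrrc17 apart from the other 5 members. In collagen-rich spots Cthrc1 was seen in 68.6% of 86 KO spots and 98.3% of 646 WT spots, Ccn3 in 41.9% in KO and 64.9% in WT, and Lrrc17 in 31.4% in KO and 71.98% in WT. Lrrc15 was seen in 4.65% of the KO and 59.8% of the WT spots, Pcsk5 in 4.65% of the KO and 40.2% of the WT spots, and Mfap4 in 3.49% of the KO and 41.95% of the WT spots. C1qtnf3 was seen in 1.16% of the KO and 25.7% of the WT spots, and Fmod in 0 of 86 KO spots, which allows a share of up to 3.49% by the limit of 3 counts and 4.20% by the exact binomial interval, and in 13.8% of the WT spots. Dcn was seen in 98.8% of the KO and 89.6% of the WT spots, so these KO spots are rarely without fibroblast signal. Background genes were seen in at most 1.16% of the KO and 0.464% of the WT spots, and the C1qtnf3 and Fmod shares in KO are at or under that level. Left out as too shallow were 40 KO and 121 WT collagen-rich spots. Without thinning, the shares were 69.05% in KO and 91.8% in WT for Cthrc1, and 11.9% in KO and 70.4% in WT for Lrrc15.

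Binning spots by the summed Col1a2 and Col3a1 level compared the sections at closer collagen levels. Below 1000 CPM of collagen (2005 KO and 1557 WT spots) the members were low in both, from 0.245 to 2.58 CPM in KO and from 0.227 to 3.16 CPM in WT. There Cthrc1 was 2.58 CPM in KO and 2.89 CPM in WT, and Ccn3 1.82 CPM in KO and 3.16 CPM in WT. Between 5000 and 20000 CPM (225 KO and 356 WT spots) Cthrc1 was 118 CPM in KO and 279 CPM in WT, Mfap4 26.7 CPM in KO and 76.8 CPM in WT, and C1qtnf3 3.97 CPM in KO and 110 CPM in WT. Pcsk5 stood apart, with 12.3 CPM in KO and 16.3 CPM in WT (8.49 to 17.1 in KO and 13.2 to 19.8 in WT) in that bin and 3.45 CPM in KO and 2.61 CPM in WT between 1000 and 5000 CPM. At 20000 CPM and above Pcsk5 was 14.1 CPM in KO and 138 CPM in WT. So for Pcsk5 the sections parted in the richest spots, where Col1a1 also differed most (9125 CPM in KO and 32332 CPM in WT), and for C1qtnf3 they parted from 1000 CPM upward, at 2.37 CPM in KO and 20.5 CPM in WT.

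**Figure D5:**
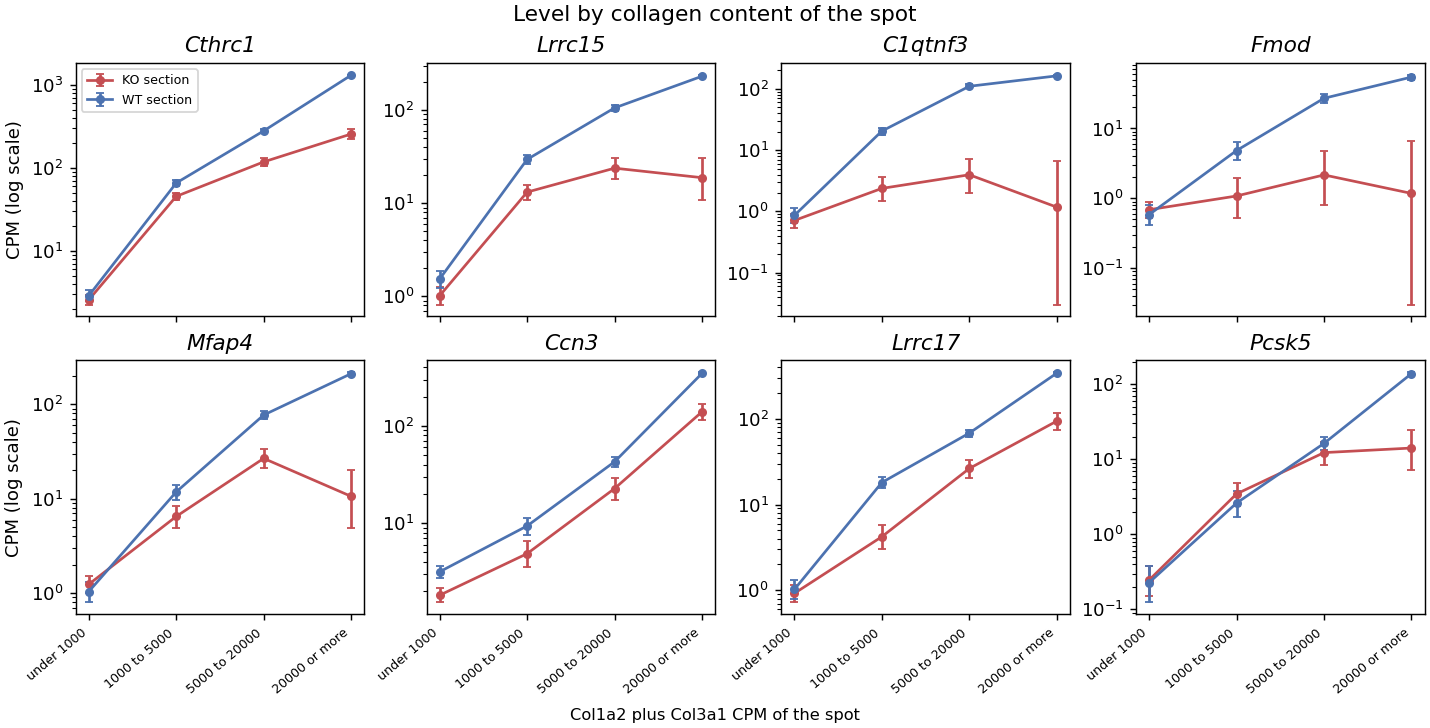
Level of each member (CPM, log axis) in spots binned by summed Col1a2 and Col3a1 CPM, in KO (red) and WT (blue), with exact 95% counting intervals. In the bin from 5000 to 20000 CPM C1qtnf3 is 3.97 CPM in KO and 110 CPM in WT while Pcsk5 is 12.3 CPM in KO and 16.3 CPM in WT.

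Within collagen-rich WT spots the members also split by how much melanocytic signal a spot held, divided at the median share. Per 1000 Col1a1 UMIs, C1qtnf3 was 7.86 in the melanocytic-high spots and 3.19 in the low ones, Fmod 2.28 in the high and 1.28 in the low ones, Lrrc15 8.71 in the high and 6.09 in the low ones, and Mfap4 8.17 in the high and 5.38 in the low ones. Ccn3 was 7.12 in the high and 13.1 in the low spots, Lrrc17 8.06 in the high and 12.1 in the low spots, Cthrc1 35.05 in the high and 44.03 in the low spots, and Pcsk5 3.11 in the high and 5.04 in the low spots. The first 4 were thus higher per Col1a1 where a spot held more melanocytic signal, and the last 4 where it held less. In KO, at the same limit, Lrrc15 was 3.11 per 1000 Col1a1 UMIs in the high spots (1.78 to 5.05, 16 UMIs). In the low ones it was 0.623 (0.0755 to 2.25, 2 UMIs). Ccn3 was 12.6 in the high (9.76 to 16.1) and 17.8 in the low KO spots (13.5 to 23.01). Cthrc1 ran the other way than in WT, at 30.3 in the high (25.8 to 35.5) and 23.4 in the low KO spots (18.4 to 29.3). For each of these members the KO intervals of high and low spots overlap. Overlap of single intervals does not decide the KO direction, and no interval of the high over low ratio was computed. Pcsk5 was 1.56 in both, and C1qtnf3 had 0 UMIs in the high and 1 in the low KO spots. These splits were noticed in the values and have no test.

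Lists of related genes, chosen with earlier results of these data known, give the setting. Beside them, 5.06% of all genes were at least 2-fold lower over the KO section and 8.17% in its collagen-rich spots. Of the activated fibroblast and matrix list 18 of 25 genes were at least 2-fold lower over the KO section and 0 higher (median log2 -1.95). In collagen-rich spots 18 of 24 were lower (median log2 -1.64), and the list holds Col1a2 and Col3a1, which defined those spots. Of the pan fibroblast list 11 of 13 were lower over the section (median log2 -1.73) and 5 of 13 in collagen-rich spots (median log2 -0.66). Of the fascia-type list 10 of 14 were lower over the section (median log2 -1.70). Most fibroblast genes were lower over the KO section, and the members' median of -3.79 lay below all 3 lists, which follows from the choice.

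The pathways and families of the members were mixed, with 5.06% of all genes at least 2-fold lower as the background. That share is over genes with at least 500 UMIs in the higher section, and the lists admit genes from 50 UMIs, so the limits are unlike. Of the TGF-beta list 5 of 14 were at least 2-fold lower, among them Tgfbi, a target, at 0.261 times the WT level, while Tgfbr1, a receptor, was at 1.35. Of the WNT list 9 of 17 were lower and 1 higher, with Sfrp2 at 0.101 and Fzd2, a receptor, at 0.286. Of the members' own families, 7 of 8 small leucine-rich proteoglycans were lower (Aspn at 0.103, Bgn at 0.176, Dcn at 0.441), 4 of 7 microfibril genes (Mfap5 at 0.127, Fbln5 at 1.37), 2 of 5 CCN genes (Ccn5 at 0.182, Ccn1 at 0.925), 2 of 7 C1q and TNF related genes (C1qtnf2 at 0.247, C1qtnf6 at 0.815) and 1 of 7 proprotein convertases (Pcsk6 at 0.337, Furin at 0.778). The share of relatives past the fold was thus high for Fmod and low for Pcsk5. C1qtnf3 and Fmod are also known from tendon, cartilage and bone. Of the tendon list 0 of 4 and of the cartilage and bone list 0 of 8 were lower over the section. Lists this short cannot be set apart from the 5.06% of all genes. In collagen-rich spots the 1 measured gene of each list was at least 2-fold lower, against 8.17% of genes. These were Thbs4 at 0.289, on 6 KO UMIs, and Sox9 at 0.449, on 10.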

How the data were processed

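For each of 2 sections the authors deposited raw UMI counts for every gene in every spot. Per the file headers, the software was Space Ranger 2.1.0. The submitters' processing notes also name featureCounts and mm10, with no role for each. Per the file headers, Moran's I is a deposited score from the same software. Beside it stand a deposited p-value and a deposited signal (a scaled mean over spots), neither of which was used here. Each array position carries the same barcode on every slide, so the 2138 barcodes found in both sections are shared positions, not shared cells.

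Genotypes come from the labels, and the WT sample's title (Csnk2bfl/fl) and its genotype field (wild-type) name it differently. Counts were summed per section or spot class and scaled to CPM. Ratios carry exact conditional binomial (Clopper-Pearson) intervals at 95%, single levels exact Poisson intervals, and shares exact binomial ones. Log2 ratios had 0.5 added to counts. Whole-section shares of all genes used genes with at least 500 UMIs in the higher section. List counts over whole sections used genes with at least 50 UMIs over both sections. Collagen-rich ratios used genes with at least 100 UMIs in those spots of the higher section. Tiles needed at least 10 spots. Spots were thinned to 5000 UMIs. The intervals, thinning and Moran's I code were tested on simulated data. Python 3.11.15, NumPy 2.4.6, SciPy 1.17.1, pandas 2.3.3 and edgeR 4.0.16 (R 4.3.3, TMM factors only) were used.

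The members and the 22 gene lists (209 genes, 208 in the matrix) were chosen with earlier results of these data known. Named were the 8 members, of each list the 3 genes with the most UMIs and the highest and lowest ratio, the genes just outside the members' ratios, the 10 genes most like their sum and the 3 most like each. Alternatives were other scalings, limits, denominators and spot choices. Xist and Lilrb4a were not analysed here, and 1 gene of the background list is not reported singly here. Gene and promoter annotation is RefSeq's for GRCm38.p6, the assembly that mm10 denotes.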

Additional observations from a re-analysis of the deposited data

How the results depend on the processing

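No paired analysis was possible because there is 1 section per genotype. For the same reason no replicate could be left out. Over whole sections all 8 members stayed below WT under every one of the 9 other settings (72 of 72 values), but in melanocytic-rich spots 6 of 8 were at least 2-fold lower, without Fmod (-0.53) and Pcsk5 (-0.86). The median log2 KO over WT of the members, -3.79, was -4.00 with TMM factors, -4.02 with median-of-ratios size factors, -3.48 with equal weight per spot, -4.19 in interior spots, -4.13 with background taken off and -1.46 in melanocytic-rich spots. The ratio to Col1a1 in collagen-rich spots depends on the spots and the denominator, and 86 of 96 values were below 0. These values include the settings chosen after seeing the data and values that come from the 0.5 added to a count of 0. The median of this ratio, -1.54, was -0.75 with the limit at the WT median and -0.81 at the 75th percentile of each section. It was -2.98 with Col3a1, which also defined the spots, as denominator, -4.35 with Dcn and -3.35 with total UMIs. With the limit at the WT 90th percentile it was -0.11, on 3 KO spots. There Lrrc15, C1qtnf3, Fmod and Mfap4 had 0 KO UMIs, so this median says little about the richest spots. Single members changed side. Ccn3 was -0.58 at the WT median, -0.72 at each section's 75th percentile, -0.11 with spots chosen on Sparc and Bgn, -0.99 against Col3a1, -2.35 against Dcn and -1.36 against total UMIs. Lrrc15 was 0.49 with spots chosen on Sparc and Bgn. Lrrc17, at -0.02, was -0.89 at the WT median, -0.90 at each section's 75th percentile and -1.29 with Sparc and Bgn. Fmod was 1.53 at the WT 90th percentile, where the KO section has few spots and the value comes from the 0.5 added to a count. Settings chosen after seeing the data gave medians of -1.43 in rim spots, -1.46 in spots with at least 5000 UMIs and -1.18 in the upper melanocytic class. The median log2 co-location over WT pairs, 2.80, was 3.58 with a deeper thinning, 2.99 in interior spots and 0.39 in collagen-rich spots. Above probe background in KO stood 8 members at 1 time the median, 5 at 3 times and 8 in collagen-rich spots, where the list's median was 0, in place of 7, and 1 further planned limit is not reported here. Moran's I recomputed on log counts had a WT median of 0.644, and on spots thinned to 5000 UMIs 0.541. Other causes of these shifts were not tested. Depth limits C1qtnf3 and Fmod in KO most, with 1 UMI each in collagen-rich spots.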
